A study of Mus musculus with 8 samples.

Results

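Spi1, Maf, Irf8, Irf5, Runx1, Zeb2, Mitf, Tfec and Gata6, 9 transcription factor genes that set macrophage lineage and tissue identity, were picked by symbol and described in adhesion-related macrophages (ARMs) and stromal vascular fraction macrophages (SMs) of mouse epididymal white adipose tissue (eWAT). All 9 were listed in both tables, out of 18040 genes in either table, 17740 in the high-fat diet (HFD) table and 16436 in the normal diet (ND) table. The mice were wild-type C57BL/6J males that received ND (labelled as chow) or HFD from 6 weeks of age, and the HFD groups were taken after 8 weeks of that diet. ARMs are the sorted macrophages freed from the floating adipocyte layer after collagenase digestion by vortexing with beads, and SMs, labelled NARM, are those sorted from the pelleted stromal vascular fraction. Each of the 4 groups had 2 libraries, each made from 6 pooled HFD mice or 10 pooled ND mice, so that animals within a library cannot be separated and the spread covers 2 pools a group. Nothing in the sources used here says whether the pools were separate cohorts.

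These factors act in layers. PU.1, the ETS-family protein encoded by Spi1, binds purine-rich elements and opens chromatin across the myeloid lineage, often beside IRF8, while RUNX1 acts at the earlier blood stem and progenitor stages and with PU.1 in myeloid cells. c-MAF and ZEB2 hold the programs of resident tissue macrophages, IRF5 carries Toll-like receptor signals to inflammatory cytokine genes, and MITF and TFEC, of the MiT-TFE family, act on lysosomal and osteoclast genes. GATA6 is the factor that sets the large peritoneal macrophage apart from the macrophages of other tissues.

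The cells carried the markers of their label. All 8 macrophage markers listed (Adgre1, Csf1r, Cd68, Itgam, Mrc1, Fcgr1, Mertk and C1qa) were detected, with a summed level of 12500 to 13500 TPM (transcript abundance scaled for gene length and library size) in HFD libraries and 13500 to 14100 TPM in ND libraries, and 0 of 8 were called different between ARMs and SMs in either diet. Other cell types also left signal, more of it in ARMs. Of 12 adipocyte markers 10 were called higher in ARMs in HFD mice and 9 in ND mice, and their summed level was 1370 to 1500 TPM in HFD ARMs against 440 to 520 TPM in HFD SMs, and 728 to 1120 TPM in ND ARMs against 405 to 540 TPM in ND SMs. Fibroblast and progenitor markers were called higher for 5 of 8 genes in HFD mice and 7 of 8 in ND mice, lymphatic endothelial markers for 3 and 4 of 6, and pericyte and smooth muscle markers for 2 of 8 and 2 of 7, and the monocyte, dendritic cell, mast cell, T and NK cell, B cell and neutrophil lists had at most 1 gene called in a diet. Total estimated counts ranged from 18288775 to 19040133 in HFD libraries and from 14508824 to 16319038 in ND libraries.

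Promoter sequences are shown for the 4 members whose HFD and ND libraries did not overlap in level in FPKM, the genes on which the comparison of diets turns. They come from RefSeq on GRCm38.p6, the assembly named mm10 in the submitters' processing notes, and run 5′ to 3′ on the gene's strand. Each covers 250 bases before to 50 bases after the transcription start farthest upstream among the promoter starts listed for the gene. For Irf5 only 1 start was listed, and its window lies downstream of the annotated gene start at base 29526130. Of the 9 members 6 were matched, with 13 starts, and Spi1 and Maf were not matched. The chromosome of Gata6 was left out of the search for windows, so no Gata6 window was examined. Capitals mark every match, on either strand, to 8 short motifs.
Tfec, chr6:16898392-16898691, - strand: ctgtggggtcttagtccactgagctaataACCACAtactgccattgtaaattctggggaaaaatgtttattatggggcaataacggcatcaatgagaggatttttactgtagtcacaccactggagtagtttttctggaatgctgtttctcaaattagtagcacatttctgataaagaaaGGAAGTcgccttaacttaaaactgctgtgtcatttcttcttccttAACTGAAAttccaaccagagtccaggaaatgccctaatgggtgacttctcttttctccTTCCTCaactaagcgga
Mitf, chr6:97806808-97807107, + strand: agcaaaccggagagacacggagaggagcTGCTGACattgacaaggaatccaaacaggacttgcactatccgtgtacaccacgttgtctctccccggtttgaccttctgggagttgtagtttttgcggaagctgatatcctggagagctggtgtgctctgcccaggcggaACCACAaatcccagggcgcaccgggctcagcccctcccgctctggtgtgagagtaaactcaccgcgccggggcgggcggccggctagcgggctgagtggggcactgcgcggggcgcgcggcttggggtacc
Zeb2, chr2:45117393-45117692, - strand: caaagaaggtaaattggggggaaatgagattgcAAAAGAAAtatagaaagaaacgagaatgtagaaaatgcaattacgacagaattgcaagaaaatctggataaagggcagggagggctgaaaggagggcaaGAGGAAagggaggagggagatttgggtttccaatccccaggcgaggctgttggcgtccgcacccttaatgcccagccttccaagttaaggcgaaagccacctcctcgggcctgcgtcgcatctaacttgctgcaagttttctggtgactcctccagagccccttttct
Irf5, chr6:29526375-29526674, + strand: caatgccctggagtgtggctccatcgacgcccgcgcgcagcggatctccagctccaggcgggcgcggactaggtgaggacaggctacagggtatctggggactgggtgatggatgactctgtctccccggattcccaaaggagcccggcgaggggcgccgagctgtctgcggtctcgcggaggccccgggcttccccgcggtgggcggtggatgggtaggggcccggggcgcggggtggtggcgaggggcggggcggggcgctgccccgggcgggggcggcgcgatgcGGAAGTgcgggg

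The motifs searched were the PU.1 box core GAGGAA, the ETS core GGAAGT, the IRF element AANNGAAA, the RUNX site TGTGGT, the MiT-TFE E-box CACGTG, the ZEB E-box CACCTG, the GATA site AGATAA and the MAF element TGCTGAC. The Tfec window held matches to 4 of them. Its ETS core began 70 bases before the start and its IRF element 25 bases before it, its RUNX site lay 221 bases before on the other strand, and its PU.1 box core lay on the other strand from base 34 after the start. In the Zeb2 window the PU.1 box core began 118 bases and the IRF element 217 bases before the start. The upstream Mitf window held a MAF element 222 bases before the start and a RUNX site, on the other strand, 81 bases before, and the Irf5 window held an ETS core from base 39 after the start.

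Such short words are common. Among all 32851 promoters of that length, 28.3% held the PU.1 box core, 23.8% the ETS core, 23.9% the IRF element, 16.8% the RUNX site, 7.15% the MiT-TFE E-box, 20.2% the ZEB E-box, 11.2% the GATA site and 4.67% the MAF element. Of the 13 member windows, several of which belong to the same gene and a pair of which overlap at Zeb2, 6 held the PU.1 box core (Zeb2, Tfec and Runx1) and 6 the IRF element (the same 3 genes). The ETS core and the MAF element were in 2 windows each, the RUNX site and the ZEB E-box in 3 each, the MiT-TFE E-box in 1 (Runx1), and the GATA site in 0. A match describes letters and not binding.

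The levels of the members were examined first, in FPKM, fragment counts scaled for gene length and library size, which allows genes to be compared. Spi1 stood highest in every group and Gata6 lowest. In HFD mice mean Spi1 was 284.6 ± 11.3 FPKM for ARMs and 259.5 ± 3.37 for SMs, and in ND mice 249 ± 25.9 for ARMs and 229.4 ± 3.29 for SMs (SD, n = 2), above 98.0% to 98.5% of the genes in its table. Maf, Zeb2 and Irf5 followed, with group means from 123.1 to 147.5 FPKM for Maf, 102.3 to 148.5 for Zeb2 and 85.5 to 124.5 for Irf5. Irf8 lay at 46.2 to 53.7 FPKM, Runx1 at 35.03 to 43.9, Mitf at 19.5 to 30.6 and Tfec at 12.0 to 16.0. Gata6, at 0.24 to 0.66 FPKM, was 22.8 to 66.8 times below Tfec.

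The order of neighbours held beyond the spread of the libraries except at 4 places. Maf and Irf5 overlapped in HFD ARMs, where their means differed by 1.01 times, and Zeb2 and Irf5 overlapped in HFD SMs. In ND SMs Zeb2 overlapped with Maf, and Runx1 with Mitf. Maf ranked above Zeb2 in both HFD groups and below it in both ND groups.

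**Figure D1:**
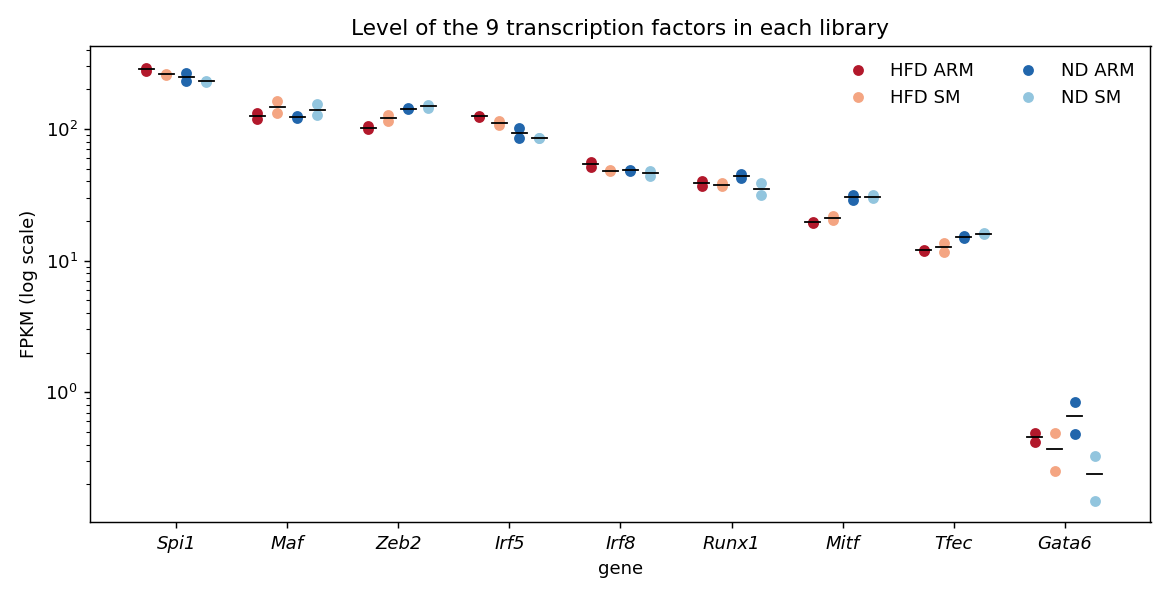
FPKM of each transcription factor (log axis) in the 8 libraries, coloured by group; points are libraries and black bars are group means of 2. Spi1 lies between 227 and 293 FPKM in every library, and Gata6 stays under 1 FPKM in all 8.

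Next, ARMs were set against SMs, separately for each diet, to ask whether macrophages that adhere to adipocytes differ in these lineage factors. Few differences were seen: 0 of 9 members were called in HFD mice and 0 of 9 in ND mice. Calling required a change beyond 1.5-fold together with an adjusted p below 0.05 (edgeR, quasi-likelihood test, Benjamini-Hochberg over all genes tested). That rule called 634 of 13337 genes in HFD mice (4.75%, with 4.46% higher and 0.292% lower in ARMs) and 458 of 12441 in ND mice (3.68%, with 3.55% higher and 0.129% lower). At an unadjusted p under 0.05 there were 3 members in HFD mice (23.2% of all genes) and 2 in ND mice (14.9% of all genes). DESeq2 called 0 members in either diet.

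The intervals show how small a difference the data allow. For 8 of 9 members in each diet, all but Gata6, the 95% interval of the ARM over SM change lay within 1.5-fold of no change, as it did for 68.0% of all genes on HFD and 65.4% on ND. The median size of the log2 fold change over the members was 0.13 in HFD mice and 0.11 in ND mice, beside 0.13 over all genes in either diet. The libraries of ARMs and SMs did not overlap, in counts scaled to library size (CPM), for 6 members in HFD mice (52.7% of all genes) and for 4 in ND mice (44.5% of all genes). Exact permutation of 2 libraries a side has a smallest two-sided p of 0.333, so each p given here rests on a spread shared across genes. In sorted bulk RNA, fewer cells of a type and less RNA per cell cannot be told apart.

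**Figure D2:**
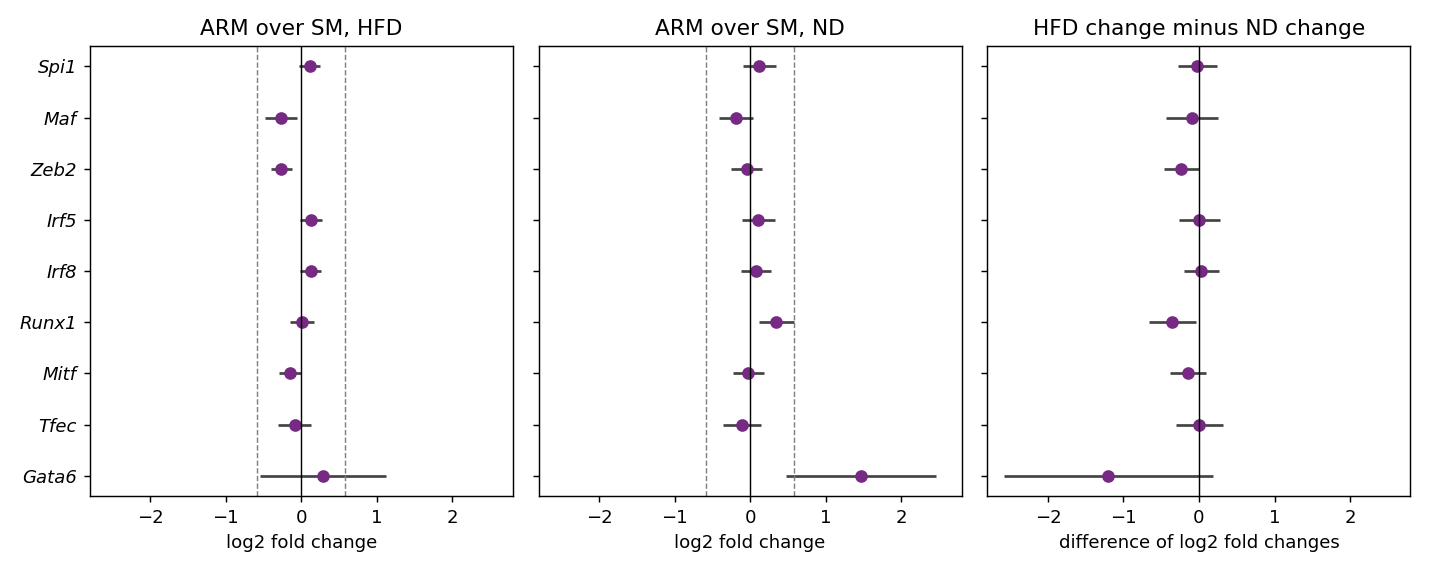
log2 fold change of each transcription factor in ARMs over SMs in HFD mice and in ND mice, and the difference of those 2 changes, with points for estimates, lines for 95% intervals and dashed lines at 1.5-fold. All intervals but that of Gata6 lie inside the dashed lines in both diets.

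Spi1 and the factors that work with it differed little between ARMs and SMs. Spi1 was at 293 and 277 FPKM in HFD ARMs and at 257 and 262 in HFD SMs, and at 231 and 267 in ND ARMs and at 232 and 227 in ND SMs. Both HFD ARM libraries lay above both HFD SM libraries, while the ND groups overlapped. The ARM over SM ratio was 1.08 in HFD mice (95% interval 0.982 to 1.19, edgeR adjusted p = 0.325) and 1.09 in ND mice (0.934 to 1.26, edgeR adjusted p = 0.684).

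Irf8, the partner of PU.1 that guides monocyte and dendritic cell development, showed a similar small offset. Its FPKM was 51.8 and 55.6 in HFD ARMs, 47.6 and 49.0 in HFD SMs, 49.2 and 48.2 in ND ARMs and 48.1 and 44.3 in ND SMs. ARMs were above SMs without overlap in HFD mice, while the ND groups were apart in FPKM but overlapped in CPM. The ratio was 1.09 in HFD mice (0.988 to 1.2, edgeR adjusted p = 0.285) and 1.06 in ND mice (0.917 to 1.22, edgeR adjusted p = 0.799).

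Irf5, the Toll-like receptor factor, was at 126 and 123 FPKM in HFD ARMs, 107 and 116 in HFD SMs, 85.0 and 101 in ND ARMs and 85.9 and 85.1 in ND SMs. Again the HFD groups were apart and the ND groups overlapped, where the second ARM library alone stood higher. The ratio was 1.09 in HFD mice (0.987 to 1.21, edgeR adjusted p = 0.288) and 1.08 in ND mice (0.924 to 1.26, edgeR adjusted p = 0.727).

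Runx1 gave a larger difference in ND mice than the other well expressed members. This DNA-binding subunit of core-binding factor, which pairs with the product of Cbfb, was at 42.1 and 45.7 FPKM in ND ARMs against 31.3 and 38.8 in ND SMs, with no overlap. The ratio was 1.27 (1.08 to 1.5, edgeR adjusted p = 0.0999). In HFD mice the groups overlapped, at 40.2 and 36.9 FPKM in ARMs and 38.8 and 36.6 in SMs, with a ratio of 1.01 (0.906 to 1.12, edgeR adjusted p = 0.951). The ND log2 fold change of 0.35 was 0.19 without ND SM replicate 1 and 0.51 without ND SM replicate 2. An alternative that kept all libraries gave Runx1 an adjusted p under 0.05 in ND mice, at a change short of 1.5-fold. Runx1 was called in 0 of the 15 alternatives run for ND mice.

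Maf and Zeb2, the resident-program factors, had the lowest ARM over SM ratios among the members in HFD mice. Maf was at 132 and 119 FPKM in HFD ARMs and at 162 and 133 in HFD SMs, so that the highest ARM library came within 1.11 FPKM of the lowest SM library. The ratio was 0.833 (0.72 to 0.962, edgeR adjusted p = 0.115). Its size depended on the SM libraries: the log2 fold change of -0.26 was -0.11 without HFD SM replicate 1 and -0.40 without HFD SM replicate 2. With the replicate number as a block, the log2 fold change of Maf was -0.26 (edgeR adjusted p = 0.0286). These numbers are not known to pair the libraries, and deviations of same-numbered HFD libraries correlated at -0.028 over genes. In ND mice Maf was at 125 and 121 FPKM in ARMs and at 127 and 154 in SMs, without overlap, with a ratio of 0.878 (0.75 to 1.03, edgeR adjusted p = 0.472).

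In the edgeR test used for calling, Zeb2 was the member with an adjusted p under 0.05, at a change short of 1.5-fold. Its FPKM was 99.9 and 105 in HFD ARMs against 116 and 127 in HFD SMs, with no overlap. The ratio was 0.833 (0.755 to 0.919, edgeR adjusted p = 0.0285), and 9.55% of all genes in HFD mice had an adjusted p under 0.05 whatever their fold. The log2 fold change of -0.26 stayed between -0.31 and -0.21 when any library was dropped, but the adjusted p was 0.0958 to 0.229 without HFD ARM replicate 1, HFD ARM replicate 2 or HFD SM replicate 2, 0.118 with no filter on low counts, 0.0611 in the fit of all 8 libraries and 0.061 to 0.191 in the 3 limma fits. In ND mice Zeb2 was at 145 and 141 FPKM in ARMs and at 144 and 153 in SMs. Those groups overlapped, with a ratio of 0.97 (0.841 to 1.12, edgeR adjusted p = 0.901), and 0 members reached an adjusted p under 0.05 in ND mice (4.73% of all genes).

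The MiT-TFE pair was close to equal in ARMs and SMs. Mitf was at 19.3 and 19.6 FPKM in HFD ARMs and 21.6 and 20.4 in HFD SMs, and at 31.4 and 29.0 in ND ARMs and 29.6 and 31.6 in ND SMs. Its ratio was 0.903 in HFD mice (0.819 to 0.996, edgeR adjusted p = 0.199), with ARMs below SMs in both libraries, and 0.984 in ND mice (0.855 to 1.13, edgeR adjusted p = 0.953), where the groups overlapped. Tfec, whose product is found mainly in macrophages and osteoclasts, was at 12.1 and 11.9 FPKM in HFD ARMs and 13.5 and 11.6 in HFD SMs. In ND mice it was at 15.4 and 14.8 FPKM in ARMs and 16.1 and 16.0 in SMs. The ratio was 0.941 in HFD mice (0.81 to 1.09, edgeR adjusted p = 0.659) and 0.926 in ND mice (0.778 to 1.1, edgeR adjusted p = 0.762), with ARMs below SMs in ND mice and overlap in HFD mice.

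Gata6 was at a low level in all groups, and the intervals on its change were the widest among the members. It drew 25 and 29 estimated counts in HFD ARMs, 30 and 15 in HFD SMs, 24 and 37 in ND ARMs and 15 and 7 in ND SMs. In ND mice both ARM libraries were above both SM libraries, and in HFD mice the groups overlapped. The ratio was 2.76 in ND mice (1.39 to 5.5, edgeR adjusted p = 0.0989) and 1.22 in HFD mice (0.683 to 2.17, edgeR adjusted p = 0.721). With no filter on low counts the ND adjusted p was 0.0309 and Gata6 was called. Its ND log2 fold change of 1.47 was 0.99 without ND SM replicate 2 and 1.02 without ND ARM replicate 2, and 2.16 without ND SM replicate 1 and 1.82 without ND ARM replicate 1.

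Markers of mesothelial cells, which line the surface of the fat pad, were higher in the same ND groups as Gata6. Their summed level was 47.9 and 61.6 TPM in ND ARMs against 13.2 and 18 TPM in ND SMs, and 7 of 10 tested were called higher in ND ARMs, among them Upk3b (log2 fold change 1.98). The ND library with more Gata6 counts had the higher mesothelial sum among the ARMs and the lower sum among the SMs. In HFD mice 0 of 10 were called, at 45 and 34 TPM in ARMs and 41.2 and 21 TPM in SMs, where the library with more Gata6 counts had the higher sum among the SMs and the lower sum among the ARMs. Other lists were also called higher in ND ARMs, with 7 of 8 fibroblast and progenitor, 4 of 6 lymphatic endothelial and 9 of 12 adipocyte markers. The part of any of these cell types in the Gata6 difference was not tested. Across the 8 libraries the genes most like Gata6 in their centred log2(FPKM + 1), out of 12342 searched, were Ebf2, a factor of adipocyte progenitors, with a root mean square difference of 0.0811 and a range of 0.26 to 0.9 FPKM, and Cadm3, a cell adhesion molecule, with 0.0839 and 0.34 to 1.06 FPKM. The search was made for Gata6 alone because its highest library was 5.6 times its lowest, against at most 1.64 times for the other members.

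**Figure D3:**
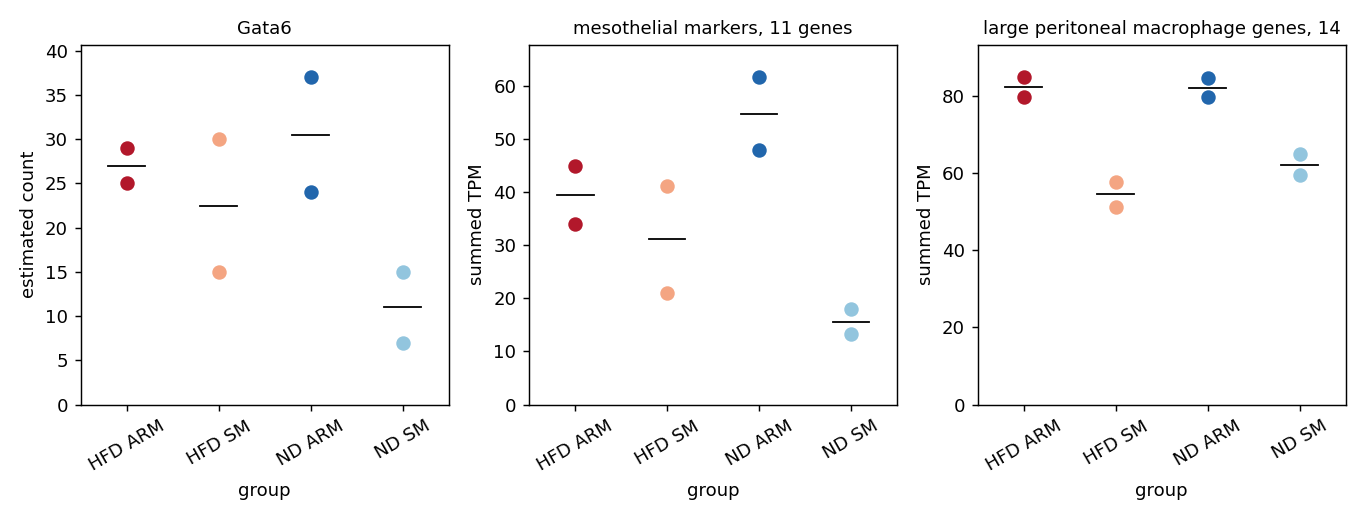
Estimated count of Gata6, and summed TPM of the mesothelial marker list and of the large peritoneal macrophage gene list, in the libraries of each group; points are libraries and bars are means of 2. Gata6 runs from 7 counts in an ND SM library to 37 in an ND ARM library, and the mesothelial sum from 13.2 to 61.6 TPM in ND mice.

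Whether the ARM over SM change itself differed between diets was tested as an interaction in a fit of all 8 libraries. By edgeR's adjusted p, 0 of 9 members differed, beside 22 of 13358 genes (0.165%). At an unadjusted p under 0.05 there were 2 members (7.61% of all genes), Runx1 with a difference of -0.35 log2 units (HFD minus ND, edgeR adjusted p = 0.551) and Zeb2 with -0.24 (edgeR adjusted p = 0.65). Gata6 had the largest estimate among the members, -1.20, with an interval from -2.58 to 0.19. DESeq2 also called 0 members.

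The levels were then set side by side between diets, as values only, since each diet came as its own table and the share of estimated counts that were not whole numbers was 32.3% to 32.9% in HFD libraries but 8.55% to 9.36% in ND libraries. Diet and table cannot be told apart. All 4 HFD libraries lay below all 4 ND libraries in FPKM for Mitf, Tfec and Zeb2, which 30.6% of all genes also did, and above them for Irf5, which 15.5% of all genes did.

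Mitf had the widest gap. HFD over ND it was at 0.644 times in ARMs and 0.686 times in SMs, with 19.3 to 21.6 FPKM in HFD libraries and 29.0 to 31.6 in ND libraries. Tfec was at 0.797 times in ARMs and 0.785 times in SMs, and Zeb2 at 0.715 and 0.817 times. Irf5 stood at 1.34 times in ARMs and 1.3 times in SMs. The gap between the ARM and the SM ratio was widest for Zeb2 among these genes. For the rest, HFD and ND libraries overlapped in FPKM, with ratios of 1.14 and 1.13 for Spi1, 1.02 and 1.05 for Maf, 1.1 and 1.05 for Irf8, 0.879 and 1.08 for Runx1 and 0.689 and 1.54 for Gata6, in ARMs and SMs.

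The same 4 members were apart in the same direction in TPM. In CPM, which ignores gene length, Spi1 and Irf8 joined Irf5 as members whose 4 HFD libraries all lay above the ND libraries (20.9% of all genes did so, and 23.2% lay below). The gene length implied by count and FPKM was 1.02 to 1.08 times longer in the HFD table than in the ND table for the 9 members. The promoter windows printed above for Tfec, Mitf, Zeb2 and Irf5 had no motif match in common to all 4.

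**Figure D4:**
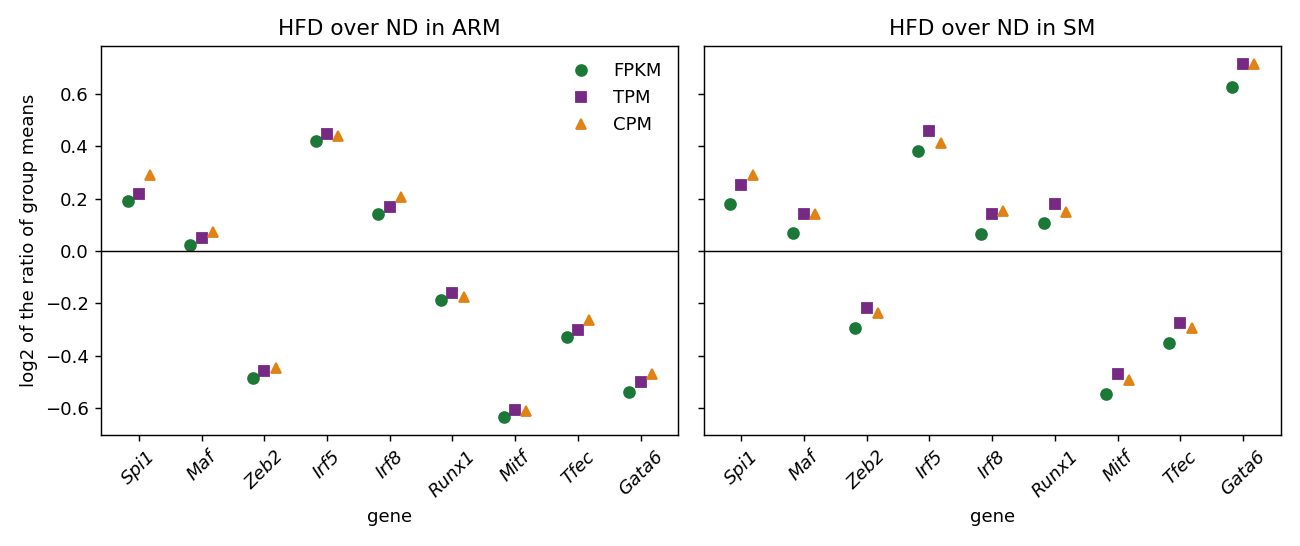
log2 ratio of the HFD mean to the ND mean for each transcription factor in ARMs and in SMs, in FPKM, TPM and TMM-normalized CPM. Mitf, Tfec and Zeb2 lie below 0 and Irf5 above 0 on every scale in both cell types, and Gata6 and Runx1 change sign between ARMs and SMs.

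The relatives of each member were then counted. Among 18 other ETS-family genes tested in HFD mice, 2 were called higher in ARMs, Ets1 at a log2 fold change of 0.96 ± 0.13 (SE) and Erg at 1.58 ± 0.27. Both are also active in endothelial cells, whose markers summed to 120 to 126 TPM in HFD ARMs against 35.9 to 50.9 TPM in HFD SMs, with 9 of 10 called higher; their part was not tested. Ets1 was at 3.27 and 1.65 FPKM on average in HFD ARMs and SMs and Erg at 1.83 and 0.57. In ND mice 1 of 17 was called, Spic, the ETS factor of heme-recycling macrophages, with 18.9 against 12.6 FPKM and 0.59 ± 0.14. Etv3, an ETS repressor, had the highest level reached among these relatives of Spi1 (169 FPKM in ND ARMs), with a log2 fold change of -0.04 on HFD and 0.39 on ND, and was not called.

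Fewer relatives of the other members were called. In the RUNX family and its cofactors 1 of 5 was called higher in HFD ARMs, Runx3, a factor of lymphocytes and dendritic cells, at 0.84 ± 0.22 from 2.17 against 1.18 FPKM, and 0 of 5 in ND mice. T and NK cell markers summed to 11.7 to 17.8 TPM in HFD ARMs and 9.04 to 9.51 TPM in HFD SMs, a gap that lay mostly in Il7r (5.35 against 2.33 FPKM), since Cd3e, Cd3d, Cd8a and Nkg7 were under 1 FPKM and lower on average in ARMs. Conventional dendritic cell markers summed to 166 to 167 TPM in HFD ARMs and 223 to 232 TPM in HFD SMs. That gap lay mostly in Cd209a (69.5 against 94.9 FPKM). Of 7 dendritic cell markers tested, 5 had estimates below 0, and 2, Xcr1 and Clec9a, were above 0 at under 1 FPKM. The part of either cell type was not tested. Cbfb, the partner subunit, was at 28.6 and 31.5 FPKM in HFD ARMs and SMs and 41.7 and 42.6 FPKM in the ND groups, not called. The IRF family (6 tested), the MiT-TFE family (2 tested), the GATA family (4 tested on HFD and 2 on ND) and the ZEB and Snail family (5 and 4 tested) had 0 called in either diet. Their most abundant genes were Irf1 at 292 FPKM in ND SMs, Tfe3 at 97.2 in ND ARMs, Zfpm1, a GATA cofactor, at 1.21 in HFD ARMs and Ctbp1, a corepressor, at 43.1 in ND SMs.

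Of 24 other myeloid factors 23 were tested in each diet, with 1 called higher and 1 lower in HFD ARMs and 2 higher in ND ARMs. Klf2, a factor that keeps endothelial and myeloid cells quiescent, fell in HFD ARMs, with 201 against 302 FPKM and a log2 fold change of -0.62 ± 0.07 (edgeR adjusted p = 0.000616), and had -0.53 ± 0.10 in ND mice, short of 1.5-fold. Id1, an inhibitor of helix-loop-helix factors, rose in HFD ARMs by 0.999 ± 0.19 from 5.5 to 11.2 FPKM. In ND ARMs its relative Id2 rose by 0.65 ± 0.09, with 128 against 81.6 FPKM, and so did Bhlhe41 by 0.87 ± 0.20 at 1.62 against 0.895 FPKM. Klf4 was the most abundant of the 23 tested, at 410 and 501 FPKM in HFD ARMs and SMs, not called.

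Genes linked to the members were described next, from lists that hold targets and, for some members, also pathway genes, regulators or general markers. Of the PU.1 targets, 1 of 17 was called higher in HFD mice, Mpeg1, which encodes a pore-forming protein of macrophages, with 183 against 118 FPKM and a log2 fold change of 0.60 ± 0.06, and 0 of 17 in ND mice. Their median log2 fold change was 0.05 in HFD mice and 0.01 in ND mice, beside -0.01 and -0.02 over all genes tested. Lyz2, lysozyme, was the most abundant at 4580 and 4620 FPKM in HFD ARMs and SMs and 6030 and 6090 FPKM in the ND groups.

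Most genes linked to c-MAF had lower estimates in ARMs than in SMs. Of 13 resident macrophage genes, 12 had a log2 fold change below 0 in HFD mice and 11 in ND mice, but 0 were called in either diet at 1.5-fold. Their medians were -0.28 and -0.12, beside -0.01 and -0.02 over all genes tested. Estimates below 0 were also found for 6 of 8 macrophage markers in each diet, with smaller medians of -0.09 on HFD and -0.04 on ND. Mrc1 and C1qa are in both of these lists. Among the 23 other myeloid factors tested, 16 were below 0 on HFD and 9 on ND. In HFD mice 6 of the 13 resident macrophage genes had an adjusted p under 0.05 below 0 and 1, Il10, above 0. Of all genes 9.55% had such an adjusted p, in either direction. Named after their values were seen, the 6 were the scavenger and uptake receptors Lyve1 (-0.58), Cd163 (-0.39) and Folr2 (-0.44), the coagulation factor F13a1 (-0.43), the reductase Cbr2 (-0.28) and the bridging ligand Gas6 (-0.30). Il10, the anti-inflammatory cytokine, stood opposite at 0.43 in HFD mice and 0.50 in ND mice. C1qa, the complement component with the highest level in the list, was at 2730 and 2960 FPKM in HFD ARMs and SMs, with -0.14 (edgeR adjusted p = 0.179). The list contains genes that mark resident macrophages in general and is not a measure of c-MAF activity.

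In the IRF5 pathway 1 of 11 genes was called in HFD mice and 2 of 11 in ND mice, all higher in ARMs. Ccl5, a T cell attracting chemokine, rose in HFD ARMs by 0.95 ± 0.18, with 22.2 against 11.2 FPKM. In ND ARMs the cytokine gene Tnf rose by 0.59 ± 0.10, with 585 against 389 FPKM, and the chemokine gene Cxcl10 by 0.78 ± 0.13, with 174 against 101 FPKM. Tnf had 0.44 ± 0.07 in HFD mice (edgeR adjusted p = 0.00221), short of 1.5-fold. The receptors and adaptors of the pathway, Tlr7, Tlr9, Myd88, Irak4 and Slc15a4, were not called, and the median of the list was -0.002 in HFD mice and 0.17 in ND mice.

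Some targets of the MiT-TFE factors rose in ARMs, while Mitf and Tfec were not called. Of 17 targets and regulators of these factors tested, 3 were called higher in HFD ARMs and 2 in ND ARMs. Gpnmb, a lysosome-associated glycoprotein of lipid-laden macrophages, rose by 1.31 ± 0.09 in HFD ARMs (46.2 against 18.2 FPKM) and by 1.17 ± 0.19 in ND ARMs (42.8 against 19.1 FPKM). Acp5, tartrate-resistant acid phosphatase, rose by 0.76 ± 0.07 and 0.73 ± 0.12, and Atp6v0d2, a subunit of the vacuolar proton pump, by 0.69 ± 0.10 in HFD ARMs, with 0.58 ± 0.12 in ND mice just under the fold threshold. The other lysosomal genes were not called, with Ctsb, a cathepsin, at 3490 and 3480 FPKM in HFD ARMs and SMs, and the list medians were -0.01 and 0.16.

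Some genes of the GATA6 program of large peritoneal macrophages were called higher in ARMs, at low levels, and of these F10 and Ltbp1 were called in both diets. Of 14 tested, 4 were called in HFD ARMs and 3 in ND ARMs, with medians of 0.38 and 0.42. Estimates were below 0 for 2 genes in HFD mice, F5 (-0.23) and Serpinb2 (-0.21). In ND mice 3 were below 0, F5 (-0.55), Alox15 (-0.45) and Aspa (-0.03). F10, coagulation factor X, rose by 1.19 ± 0.14 in HFD ARMs and 0.76 ± 0.19 in ND ARMs, and Ltbp1, a binding protein of latent TGF-β, by 0.90 ± 0.17 and 1.22 ± 0.23. Selp, P-selectin, which platelets and endothelium also make, rose by 1.49 ± 0.17 and Lrg1, a secreted glycoprotein, by 0.70 ± 0.19 in HFD ARMs, and Serpinb2, a protease inhibitor, by 0.63 ± 0.16 in ND ARMs. The summed level was 79.7 and 84.8 TPM in HFD ARMs against 57.6 and 51.3 TPM in HFD SMs, and 79.6 and 84.7 TPM in ND ARMs against 64.9 and 59.4 TPM in ND SMs, so ARMs were above SMs in both diets. Aspa had the highest mean level in the list, at 10.8 and 9.82 FPKM in HFD ARMs and SMs, and was not called. Alongside, vascular endothelial markers were called higher in ARMs for 9 of 10 genes on HFD and 1 of 10 on ND, fibroblast and progenitor markers for 5 and 7 of 8, and mesothelial markers for 0 and 7 of 10, and their part was not tested.

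**Figure D5:**
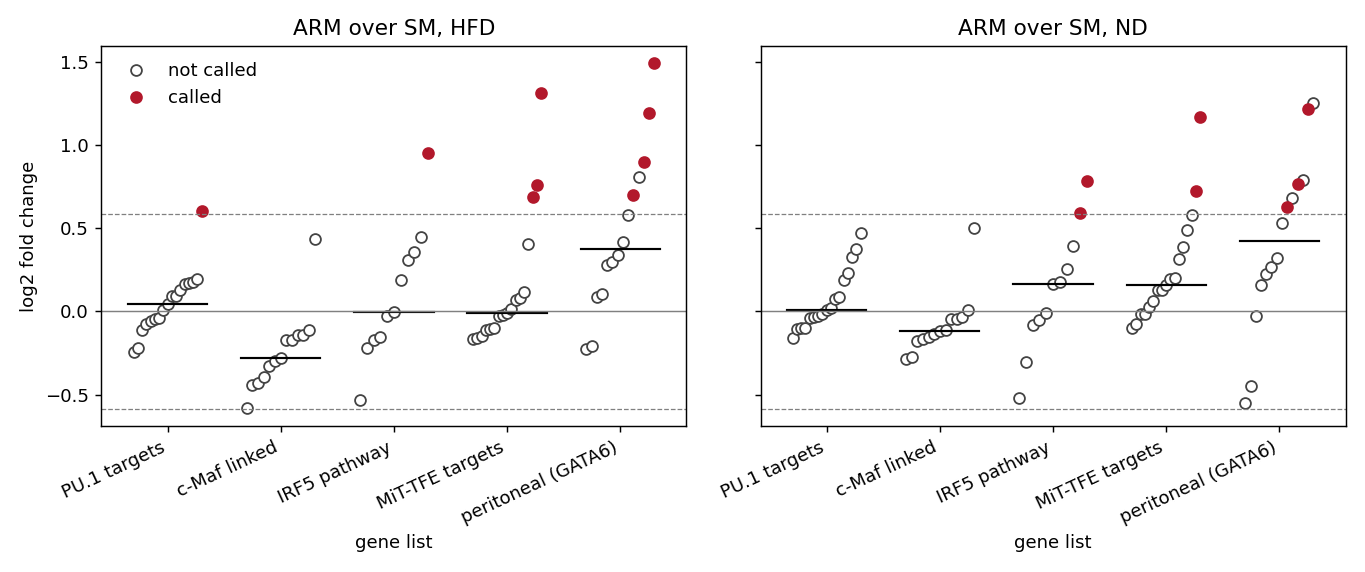
log2 fold change of ARMs over SMs for each gene tested in 5 lists of genes linked to the transcription factors, in HFD mice and in ND mice. Some lists hold pathway genes or regulators beside targets. Filled points are called, open points are not, bars are list medians and dashed lines mark 1.5-fold. The c-MAF linked genes sit below 0 but for 1 of 13 in HFD mice and 2 of 13 in ND mice, and the called genes of the other lists are all above 0.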

How the data were processed

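The authors deposited, per diet, a table of estimated counts, FPKM and TPM per gene and library. The labels name mm10, and the aligner and counting program are not given in the sources used here. Columns of the authors' own comparisons were not used. After rounding to whole numbers, the estimated counts of each diet were analysed with edgeR 4.0.16 in R 4.3.3 (TMM normalization, filterByExpr filter, quasi-likelihood test, Benjamini-Hochberg adjustment), and the difference between diets in a fit of all 8 libraries. The call rule was a change beyond 1.5-fold with an adjusted p below 0.05, and for the difference between diets the adjusted p alone. Fold changes are ARM over SM. Alternatives used DESeq2 1.42.0 and limma 3.58.1. The fits were tested on simulated data with 200 changed genes. FPKM and TPM values are given as deposited. The members, the lists and the tests were chosen with earlier results of these data known. Every member is named, and from each list other than the cell type markers every called gene and the gene with the highest mean FPKM. A list of relatives of a member is not reported here. Figures were drawn with matplotlib from the values reported.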

Additional observations from a re-analysis of the deposited data

How the results depend on the processing

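Of the 9 members, 0 were called in HFD mice under every alternative run. In ND mice 1, Gata6, was called with no filter on low counts (log2 fold change 1.46), at the threshold of the study's methods, which uses an unadjusted p (1.47), and with the replicate number as a block (1.46, edgeR adjusted p = 0.00404), and it was not called under the others that tested it, which the 2 limma fits with a filter did not. The replicate numbers are not known to pair the libraries: deviations of same-numbered libraries correlated at -0.028 in HFD mice and 0.221 in ND mice over genes, with 2 pairs each. With that replicate block 673 genes were called in HFD mice, 786 in ND mice and 187 for the difference between diets, of which 0 were members in HFD mice and for the difference.

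The number of genes called moved more than the members did. In HFD mice 634 became 181 with no filter, 331 with limma on log2(FPKM + 1), 405 on log2(FPKM + 0.1), 35 on log2(FPKM + 1) without a filter, 1017 at the threshold of the study's methods, and 214 to 637 with each library left out. In ND mice 458 became 280 with DESeq2, 214, 219 and 0 with limma in that order, 888 at that threshold, and 188 to 661 with each library left out. For the difference between diets 22 became 96 with DESeq2, 41 with no filter, and 0 to 102 with each library left out. Under limma without a filter, the ND count of 0 came from a fit to all genes listed; the cause was not tested.

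Small changes turned sign when libraries were left out. In HFD mice Tfec ranged from -0.202 to 0.038, Gata6 from -0.127 to 0.866 and Runx1 from -0.0604 to 0.0845 on the log2 scale, and in ND mice Irf5 from -0.0274 to 0.23, Mitf from -0.0765 to 0.0299 and Zeb2 from -0.0927 to 0.0032. The difference between diets ranged from -0.0927 to 0.106 for Spi1, -0.229 to 0.0797 for Maf, -0.0067 to 0.1001 for Irf8, -0.083 to 0.148 for Irf5 and -0.105 to 0.13 for Tfec, and was 0.0029 for Spi1 with upper-quartile normalization and with no filter. The cause was not tested. The members separated by diet numbered 4 in FPKM and TPM, 6 in CPM, and 4 to 5 with each library left out. With 7 to 37 counts for Gata6 a library, depth limits what can be said of it.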
